A study of Homo sapiens with 18 samples.

Results

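The 10 genes described here encode the enzymes that write and erase H3K4 methylation and erase H3K27 methylation: the H3K4 methyltransferases KMT2A, KMT2B, KMT2C, KMT2D, SETD1A and SETD1B, the H3K4 demethylases KDM5A and KDM5B, and the H3K27 demethylases KDM6A and KDM6B. They were chosen by name, as 10 of 19675 protein-coding genes with a known strand, and all 10 were found on GRCh38. For each gene, peaks of both histone marks were taken from 3 kb upstream of the 5′ end to the 3′ end, called the gene region below, together with the sites that the authors' differential tables assigned to the gene. The rule for this choice used no value of the data, but earlier results of these data were known when it was made.

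Chromatin immunoprecipitation sequencing was done in V16D, a castration-resistant prostate cancer line derived from LNCaP cells and grown in medium with serum. V16D/CTL cells carried a control lentivector and V16D/H19 cells a lentivector that overexpresses the long noncoding RNA H19, with 3 replicates a group described in the labels as biological triplicates. Each replicate gave a peak list for H3K4me3, the mark of active promoters, and for H3K27me3, the mark laid down by the polycomb repressive complex PRC2. No RNA or protein was measured in these libraries, so the values below describe the chromatin at the genes of the enzymes, not the amount or activity of the enzymes.

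H3K4 methylation is set by large complexes known as COMPASS, in which a catalytic subunit works with shared partners such as WDR5, RBBP5, ASH2L and DPY30. SETD1A and SETD1B account for much of the H3K4me3 at active promoters, KMT2A and KMT2B act on CpG-rich promoters including developmental genes, and KMT2C and KMT2D mainly monomethylate H3K4 at enhancers. KDM5A and KDM5B remove the mark, whereas KDM6A and KDM6B remove methyl groups from H3K27. KDM6A is also a subunit of the KMT2C and KMT2D complexes, and KMT2C, KMT2D and KDM6A are recurrently mutated in prostate cancer.

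The H3K4me3 lists held 20048 to 21934 peaks and the H3K27me3 lists 55060 to 72289. Reads per library were not used here, and since shallower sequencing gives fewer peaks, a gene without a peak may still carry the mark. H3K4me3 was present within 1 kb of the 5′ end of 7 of 7 luminal prostate markers in all 6 lists, and in no list at the basal markers KRT5 and KRT14, the leukocyte markers PTPRC and CD3E, the fibroblast marker DCN or the endothelial marker CDH5 (PECAM1 was not matched). COL1A1, a fibroblast collagen gene, carried both marks at its 5′ end in all 6 lists.

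H3K4me3 lay within 1 kb of the RefSeq 5′ end of 9 of the 10 genes in all 6 lists, as at 11971 of all 19675 genes. SETD1B carried it there in no list, and in all 6 lists at a start inside the gene that the authors' annotation gives. Promoters of KDM6A and KDM6B are shown first, because H3K4me3 covered the first start of KDM6B and the start of KDM6A but not the second start of KDM6B. They are the 250 bases upstream of the start (RefSeq, GRCh38.p14), written 5′ to 3′ on the strand of the gene, with matches to the searched motifs in capitals.
KDM6B, first start, chr17:7833967-7834216, plus strand: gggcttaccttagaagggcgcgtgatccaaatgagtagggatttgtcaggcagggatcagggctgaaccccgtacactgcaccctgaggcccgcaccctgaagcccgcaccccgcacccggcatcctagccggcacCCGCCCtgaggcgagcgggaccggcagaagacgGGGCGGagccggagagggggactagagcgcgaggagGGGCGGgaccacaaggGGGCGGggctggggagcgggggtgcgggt
KDM6B, second start, chr17:7839667-7839916, plus strand: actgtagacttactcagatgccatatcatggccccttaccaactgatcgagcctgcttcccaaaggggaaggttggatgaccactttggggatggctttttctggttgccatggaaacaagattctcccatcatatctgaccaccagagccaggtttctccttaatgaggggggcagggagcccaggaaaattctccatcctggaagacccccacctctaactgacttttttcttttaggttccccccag
KDM6A, chrX:44872938-44873187, plus strand: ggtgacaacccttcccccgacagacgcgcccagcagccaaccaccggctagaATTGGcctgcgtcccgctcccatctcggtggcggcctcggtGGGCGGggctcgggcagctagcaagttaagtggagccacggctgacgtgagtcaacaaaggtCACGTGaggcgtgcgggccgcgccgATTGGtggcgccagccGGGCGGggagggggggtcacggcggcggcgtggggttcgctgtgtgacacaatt

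The first KDM6B window was 70.4% G or C with 21 CpG, and peaks of all 6 lists covered its 250 bases. The second KDM6B start lies 5.7 kb downstream. Its window was 50.4% G or C with 1 CpG, and 0 of its 250 bases were under a peak in any list. The KDM6A window was 69.2% G or C with 27 CpG, and 59 to 250 of its bases were under peaks. The median over 35116 RefSeq promoter windows was 58.0% G or C with 11 CpG. Of the 10 windows of the genes, from 9 of the genes since SETD1B had no entry, 9 held GGGCGG, the SP and KLF box, on either strand, against 42.6% of all windows. The second KDM6B window was the one without it. The 9 windows with it were 62.0% (KDM5A) to 92.0% (KMT2C) G or C, all above the median. The shares over all windows were not matched for this. CCAAT was in 1 window, that of KDM6A, and in 32.0% of all windows. The E-box CACGTG was in 2 windows, of KDM6A and KMT2D, and in 6.34% of all windows. TATAAA, TGACGTCA (the cAMP response element) and CCGGAAGT (an ETS site) were in 0 windows of the genes and in 10.7%, 1.65% and 3.42% of all windows. These searches took both strands, and matches of GGGCGG can overlap each other.

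The breadth of H3K4me3 set the genes apart from one another more than the vector did. The bases under H3K4me3 peaks in the gene region, averaged over the 6 lists, came to 24.5 kb at KDM6A, 12.5 kb at SETD1B and 11.0 kb at KDM6B, and lay between 2.82 kb at SETD1A and 4.29 kb at KMT2D for the other 7 genes. Among 13359 genes with a peak in the region in all 6 lists, whose median was 2.24 kb, KDM6A ranked 2, SETD1B 15 and KDM6B 20 from the top. This sum grows with the length of the gene and includes peaks that belong to starts of neighbouring genes. By height the order was another one. The highest peak, averaged over the lists, was 68.1-fold over input at KMT2A and 67.7-fold at KMT2D, above 96.3% and 96.0% of the genes, whereas SETD1B had 47.2-fold and KDM6A 48.2-fold, near the median of 48.8-fold.

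**Figure D1:**
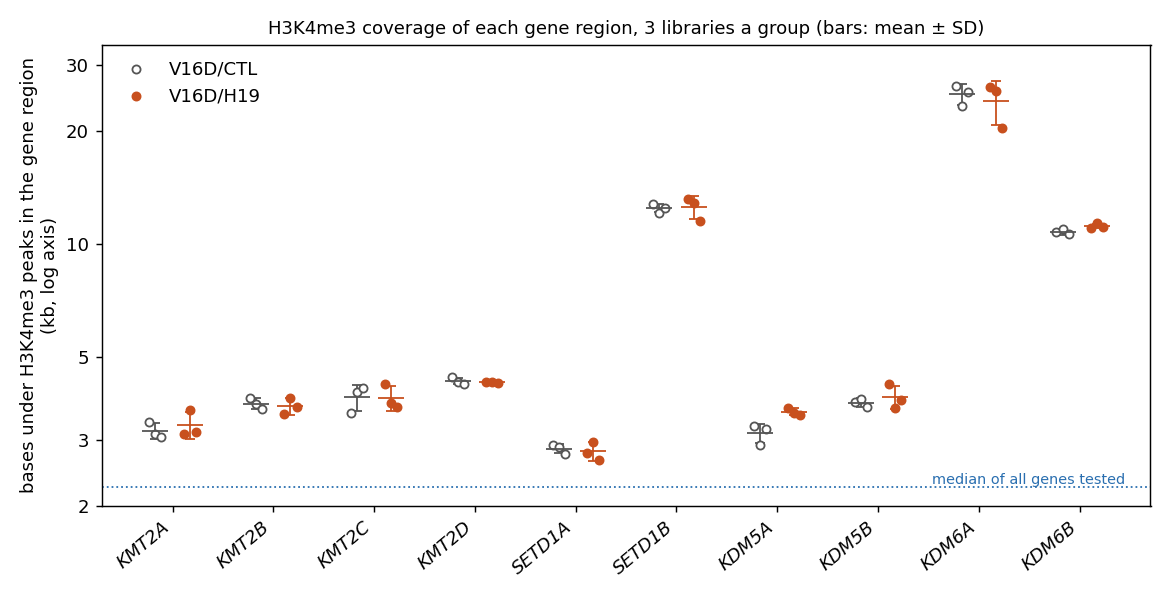
Bases under H3K4me3 peaks in each gene region (kb, log axis) in the 3 V16D/CTL (open) and 3 V16D/H19 (filled) libraries, with the mean ± SD and, dotted, the median of all genes tested (2.24 kb). KDM6A, SETD1B and KDM6B lie above 10 kb in every library, and the groups of 8 genes overlap, the exceptions being KDM5A and KDM6B.

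To ask whether H19 moved H3K4me3 at these genes, the covered bases and the highest fold over input were compared between the groups with limma over all 13359 genes. None of the 10 genes passed an adjusted p of 0.05 (limma, Benjamini-Hochberg) in either comparison, where 0.232% of all genes were called for covered bases and 0.015% for fold over input. The median log2 difference of the 10 genes, V16D/H19 minus V16D/CTL, was -0.01 for covered bases and -0.03 for fold, beside -0.0009 and -0.01 for all genes. At an unadjusted p under 0.05 stood 1 of the 10 genes, KDM5A, for covered bases and 0 for fold, beside 10.3% and 6.54% of all genes. Covered bases did not overlap between the groups at KDM5A and KDM6B, both higher in V16D/H19, a pattern found in 8.13% of all genes, and at no gene with V16D/H19 lower, found in 6.0%. The highest fold in the region did not overlap at KMT2B and KDM6B, higher in V16D/H19 (7.29% of all genes), and at KMT2A, lower (3.87%). At KDM6B the highest peak lay in different sites in different libraries, and neither of its wide sites separated the groups by height. With 3 libraries a group an exact permutation test of a single gene cannot go below p = 0.1.

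**Figure D2:**
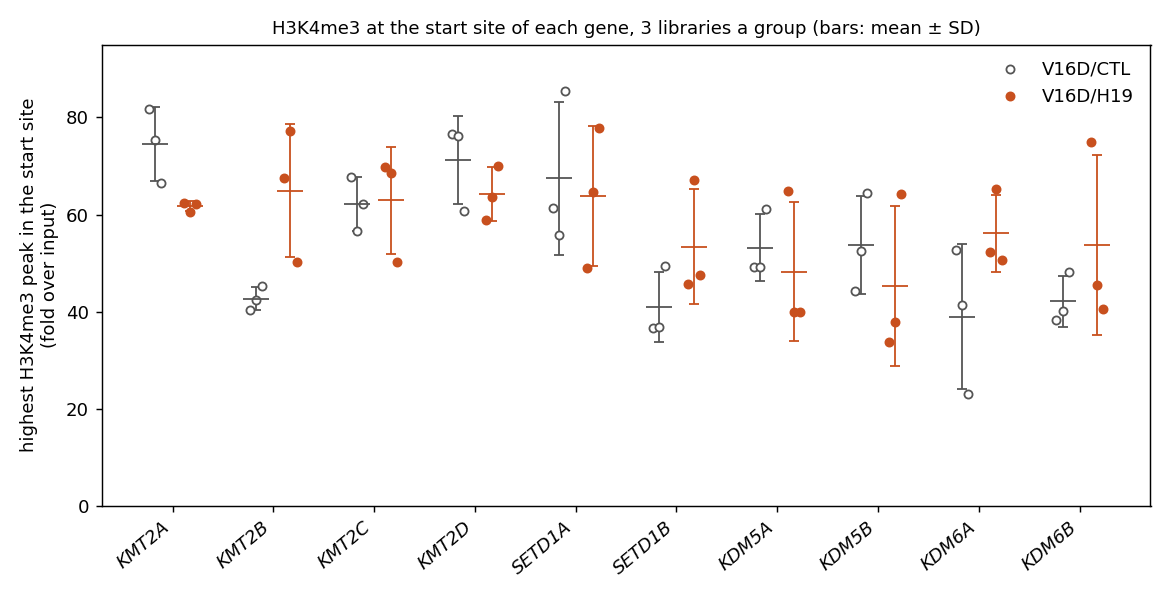
Highest H3K4me3 peak in the start site of each gene (fold over input) in the 3 V16D/CTL (open) and 3 V16D/H19 (filled) libraries, with the mean ± SD. The points lie between 23.0 and 85.4, and the groups separate at KMT2A (V16D/H19 lower) and KMT2B (V16D/H19 higher) without passing the test across all sites. V16D/H19 lay lower without overlap at 4.63% of all sites, and the share with V16D/H19 higher was not computed.

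Among the methyltransferases, the heights at KMT2A and KMT2B differed in opposite directions and neither passed the test. KMT2A (chr11:118436492-118526832, plus strand), the MLL1 enzyme, had a start site of 3.34 kb. Its highest peak was 81.7-, 75.4- and 66.4-fold over input in V16D/CTL replicates 1 to 3 and 62.4-, 60.6- and 62.2-fold in V16D/H19 replicates 1 to 3. The 3 V16D/H19 values lay below all V16D/CTL values. On the log2 scale the site differed by -0.32 (95% interval -0.90 to 0.27, adjusted p = 0.871, limma over 15811 sites). KMT2B (chr19:35718003-35738878, plus strand), the closest relative of KMT2A, read 40.4-, 42.3- and 45.2-fold in V16D/CTL and 67.4-, 77.2- and 50.1-fold in V16D/H19. Here the V16D/H19 values lay above, with a log2 difference of 0.54 (95% interval -0.06 to 1.13, adjusted p = 0.768). The bases covered at the 2 start sites overlapped between the groups, at 3.17 ± 0.152 kb and 3.13 ± 0.0269 kb for KMT2A and 3.74 ± 0.122 kb and 3.69 ± 0.189 kb for KMT2B (mean ± SD, n = 3).

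KMT2C and KMT2D, the MLL3 and MLL4 enzymes, had start sites of 3.73 and 4.06 kb. At KMT2C (chr7:152134925-152436003, minus strand) the highest peak read 67.8-, 56.7- and 62.1-fold in V16D/CTL and 69.9-, 68.6- and 50.2-fold in V16D/H19, with overlapping groups. A further site of 625 bases lay 122 kb into the gene in all 6 lists, at 3.02- to 7.40-fold. KMT2C has partial copies elsewhere in the genome, so that reads of its inner exons are uncertain. At KMT2D (chr12:49018978-49060794, minus strand) the values were 76.6-, 76.2- and 60.8-fold in V16D/CTL and 58.9-, 63.7- and 69.9-fold in V16D/H19, which overlapped. The second KMT2D site, over its 3′ end, holds the start of PRKAG1, and its peaks read 39.6- to 61.4-fold.

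SETD1A (chr16:30957754-30984664, plus strand) had 1 site of 3.02 kb in each library. It read 61.3-, 55.7- and 85.4-fold in V16D/CTL and 48.9-, 64.6- and 77.9-fold in V16D/H19, so that the groups overlapped over almost their whole range. SETD1B, its paralog (chr12:121790155-121832656, plus strand), had 4 sites in all 6 lists between 2.68 and 23.2 kb from the 5′ end that RefSeq gives. No peak lay within 1 kb of that end, and the authors' annotation places a SETD1B start at 121804180, inside the widest site (7.44 kb). The first site holds the start of RHOF and the widest one also that of LINC01089, both on the other strand, so the mark cannot be assigned to SETD1B alone. At the widest site the highest peak read 36.5-, 36.9- and 49.3-fold in V16D/CTL and 45.6-, 67.1- and 47.5-fold in V16D/H19, a log2 difference of 0.33 (95% interval -0.28 to 0.94, adjusted p = 0.878). At the first site it read 18.6-, 23.0- and 25.1-fold in V16D/CTL and 33.0-, 42.4- and 26.3-fold in V16D/H19, without overlap. The log2 difference there was 0.54 (adjusted p = 0.768, limma). The last SETD1B site, 21.1 to 23.2 kb into the region, covered more bases in V16D/H19 by 0.25 on the log2 scale (95% interval 0.02 to 0.48) without passing the test (adjusted p = 0.476, limma).

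**Figure D3:**
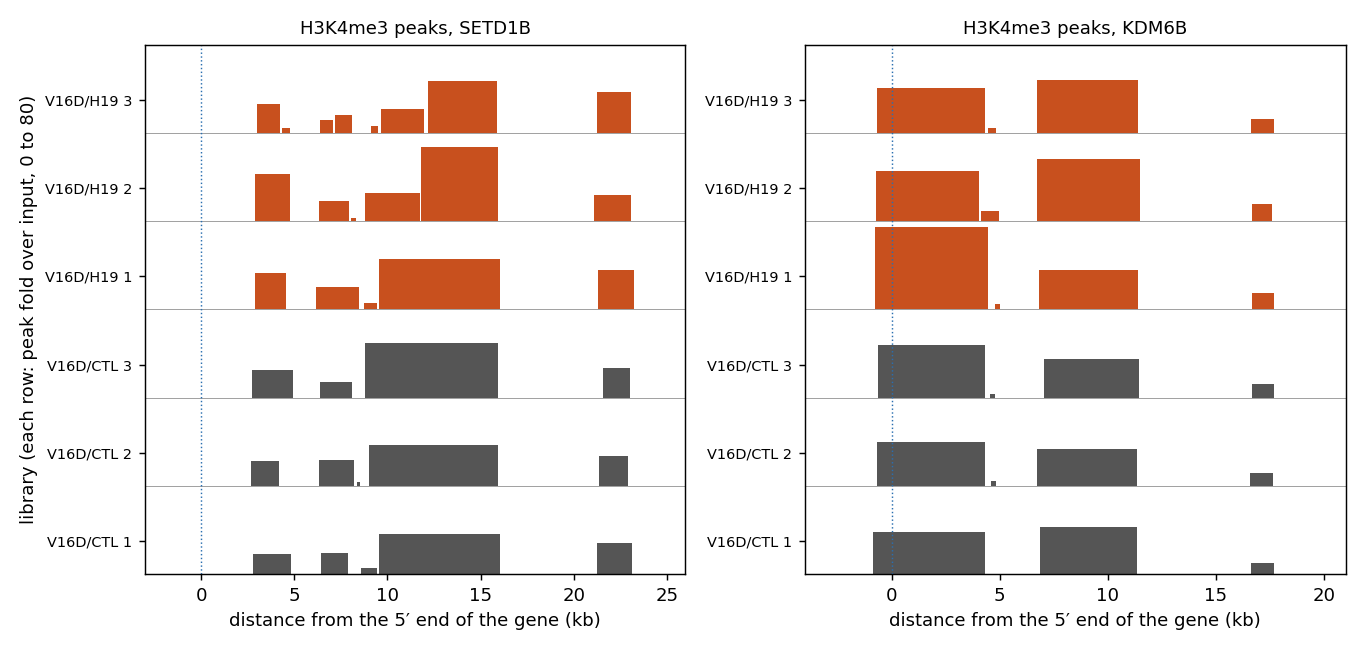
H3K4me3 peaks over SETD1B (left) and KDM6B (right) by distance from the 5′ end that RefSeq gives (kb, dotted line at 0), 1 row a library, with the height of each block giving the fold over input of the peak on a scale of 0 to 80. SETD1B holds 4 sites in all 6 lists starting 2.68 kb into the gene, and KDM6B 2 wide sites and a small one at 16.6 to 17.7 kb.

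The H3K4 demethylases gave no call. KDM5A (chr12:280057-389320, minus strand), also known as RBP2, shares its start site with the divergent gene CCDC77. It read 49.1-, 49.1- and 61.1-fold in V16D/CTL and 64.8-, 39.9- and 39.9-fold in V16D/H19. Covered bases in the KDM5A region were 3.27, 2.91 and 3.20 kb in V16D/CTL and 3.64, 3.54 and 3.49 kb in V16D/H19, without overlap, with a log2 difference of 0.18 ± 0.06 (SE) and an adjusted p of 0.352 (limma). At the start site itself covered bases overlapped, at 2.96 ± 0.0485 and 3.11 ± 0.188 kb (mean ± SD, n = 3), and the rest of the region's sum came from 2 small intronic sites 80.3 to 81.2 kb into the gene. KDM5B (chr1:202724495-202808421, minus strand), which is amplified or overexpressed in several cancers, read 44.3-, 52.5- and 64.4-fold at its start in V16D/CTL and 33.7-, 37.9- and 64.2-fold in V16D/H19. A second site of 1841 bases upstream of it (chr1:202810156-202811996) holds the start of the noncoding gene PCAT6 and read 35.1- to 54.6-fold. In V16D/H19 replicates 1 and 2 this upstream site was the higher of the 2, and in the other 4 libraries the KDM5B start was.

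Of the H3K27 demethylases, KDM6A had the only site of the 10 genes whose 95% interval by height excluded 0, and it was not at the promoter. KDM6A (chrX:44873188-45112779, plus strand), the UTX enzyme, held 30 of the 51 merged H3K4me3 sites of the gene regions and 14 of the 33 found in at least 2 lists. Sites less than 4 kb apart were joined to blocks, a step chosen after the values were seen, which left 3 large blocks. The first spans from 2.1 kb upstream to 9.8 kb downstream of the 5′ end, the second from 16.8 to 33.0 kb and the third from 74.0 to 87.8 kb, within an intron by the authors' annotation.

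**Figure D4:**
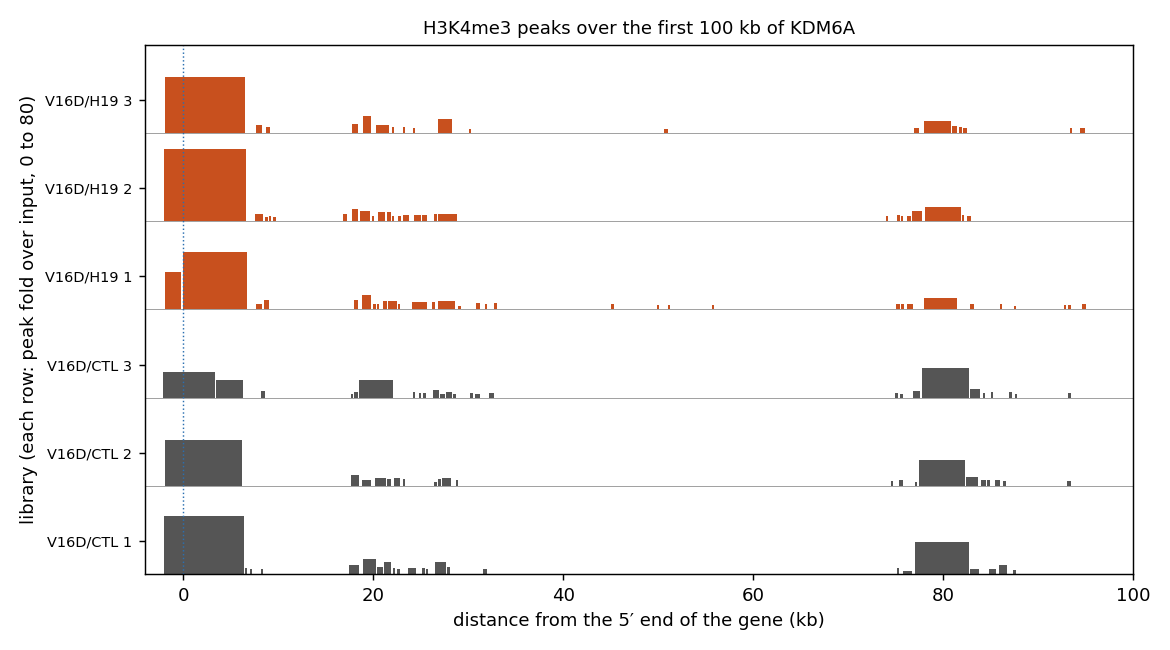
H3K4me3 peaks over the first 100 kb of KDM6A by distance from its 5′ end (kb, dotted line at 0), 1 row a library, with the height of each block giving the fold over input of the peak on a scale of 0 to 80. The block at 74.0 to 87.8 kb reaches 23.3 to 29.1 in the V16D/CTL libraries and 10.7 to 12.6 in the V16D/H19 libraries.

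In the start block the highest peak was 52.7-, 41.3- and 23.0-fold over input in V16D/CTL and 52.3-, 65.3- and 50.7-fold in V16D/H19, with overlap through V16D/CTL replicate 1. The bases covered in the block were 9124, 8148 and 8706 in the V16D/CTL lists, against 9661, 10271 and 9318 in the V16D/H19 lists, all V16D/H19 values being higher (two-sided exact permutation p = 0.1, the smallest this design allows). Blocks were built at KDM6A alone, so no share over all genes stands beside this. At the start site itself covered bases overlapped, at 8.71, 8.15 and 8.29 kb in V16D/CTL and 8.41, 8.63 and 8.37 kb in V16D/H19. The log2 difference of that site was 0.01 (adjusted p = 0.970, limma). The added bases of the block included a site 7.6 to 9.25 kb downstream of the 5′ end, of which peaks covered 205, 0 and 419 bases in V16D/CTL and 1255, 1305 and 949 bases in V16D/H19.

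The second block did not separate the groups, with 14.1-, 9.67- and 16.02-fold in V16D/CTL and 12.8-, 11.4- and 15.1-fold in V16D/H19. Covered bases of its widest site (chrX:44890608-44896080) were lower in V16D/H19 by 0.31 on the log2 scale (95% interval -0.45 to -0.17), which missed the threshold (adjusted p = 0.188, limma), and the block as a whole covered 7277 ± 1143 bases in V16D/CTL and 7389 ± 1736 bases in V16D/H19 (mean ± SD, n = 3).

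The third block differed most between the groups. Its main site, chrX:44948158-44957046 (8889 bases), read 29.1-, 23.3- and 26.97-fold in V16D/CTL and 10.7-, 12.6- and 10.8-fold in V16D/H19, a mean of 26.5 ± 2.94 against 11.4 ± 1.08 (SD, n = 3, exact permutation p = 0.1). Every V16D/H19 value lay below every V16D/CTL value, as at 4.63% of all sites with a peak in all 6 lists. The log2 difference was -1.26 (95% interval -1.85 to -0.68), the 12th lowest of 15811 sites. The site ranked 11 by p, with an unadjusted p of 0.000196 and an adjusted p of 0.282 (limma), so it did not pass a test that called 0.00632% of the sites. Covered bases there were 7.77, 6.79 and 7.32 kb in V16D/CTL and 5.27, 6.56 and 4.46 kb in V16D/H19, a log2 difference of -0.45 (adjusted p = 0.346), in a comparison that called 0.0379% of the sites. The ratio of the highest peak of this site to that of the start site was 0.552, 0.565 and 1.18 in V16D/CTL, against 0.205, 0.194 and 0.213 in V16D/H19 (exact permutation p = 0.1). The high ratio of V16D/CTL replicate 3 went with its low start peak. The ratio reuses the heights of the main site, so it is no separate support, and its p is the smallest this design allows.

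The authors' table of differential H3K4me3 sites, which counted reads over a site in all libraries, listed this KDM6A site. The pooled mean log2 normalized read count, which the table gives per group without replicates, was 9.31 in V16D/CTL and 8.27 in V16D/H19, a difference of -1.04. Of the 1857 sites of that table, 195, this one included, had a difference at least this low. The neighbouring site chrX:44957768-44960407 was listed too, at 5.74 in V16D/CTL and 4.85 in V16D/H19. Peaks lay in its first part in 3 V16D/CTL lists and in 1 V16D/H19 list. Both rest on the same reads as the peak lists and are no independent support for them. No RefSeq gene start or end was found in the main site. Such sites outside chromosome 8, among which this one falls, numbered 3058 of 15213, with a median width of 959.5 bases. Of this class, which takes in the KDM6A site itself, 3 were at least as wide as it.

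KDM6B (chr17:7834217-7854796, plus strand), the JMJD3 enzyme, carried 2 wide sites with the gap over its second start between them, 708 bases past the end of the first and 1012 bases before the second. The start site read 38.3-, 40.1- and 48.2-fold in V16D/CTL and 74.9-, 45.6- and 40.5-fold in V16D/H19, which overlapped, with replicate 1 of V16D/H19 far above the rest. The second wide site, 6.71 to 11.5 kb downstream, read 42.5-, 33.8- and 34.7-fold in V16D/CTL and 35.7-, 56.6- and 48.3-fold in V16D/H19. Covered bases at the start site were 5.17, 5.23 and 5.23 kb in V16D/CTL and 5.41, 5.65 and 5.33 kb in V16D/H19, without overlap, but the log2 difference was 0.06 (95% interval -0.05 to 0.18, adjusted p = 0.738, limma). The share of all sites without overlap in covered bases was not computed.

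Taken site by site, 22 H3K4me3 sites of the gene regions had a peak in all 6 lists, and 0 passed the limma test by fold or by covered bases. At an unadjusted p under 0.05 stood 1 by fold, the main site of the third KDM6A block, and 3 by covered bases, that site, the widest site of the second KDM6A block and the last SETD1B site, beside 6.82% of all sites by fold and 9.7% by covered bases.

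**Figure D5:**
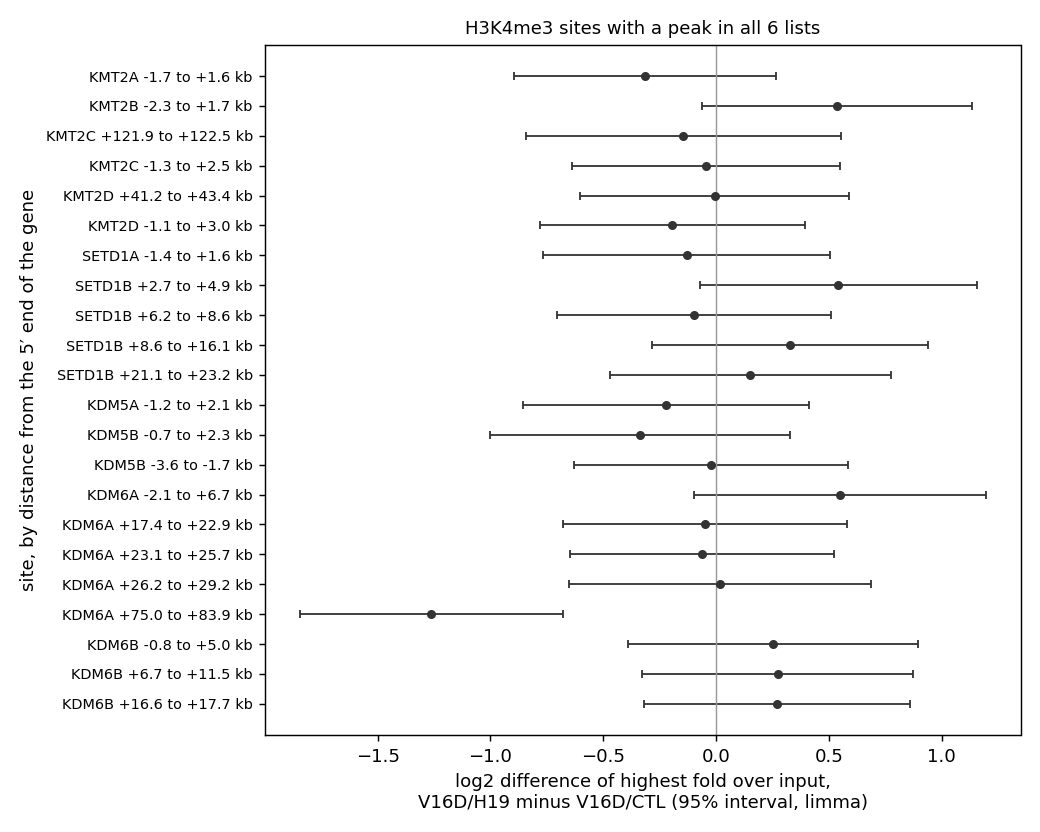
Log2 difference of the highest fold over input, V16D/H19 minus V16D/CTL, with its 95% interval from limma, at the 22 sites of the gene regions with a peak in all 6 lists, named by distance from the 5′ end (kb). The interval excludes 0 at 1 site, that of KDM6A at 75.0 to 83.9 kb, whose adjusted p over all sites was 0.282.

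The authors' list of differential H3K4me3 sites assigned 4 of them to the 10 genes, all lower in V16D/H19, as were 76.0% of the 1857 sites of the list. They fell in 3 genes, KDM6A, SETD1B and KDM6B, beside 5.38% of all genes with a lower site. These are the 3 genes with the most covered bases. The SETD1B site, chr12:121792831-121807502, had a mean log2 normalized read count of 11.23 in V16D/CTL and 10.92 in V16D/H19. The KDM6B site, chr17:7840928-7845718, went from 10.58 to 10.41, control value first. At both, the difference by read count (-0.31 and -0.17) had the opposite sign to that of the highest peak over input (0.33 at the widest SETD1B site and 0.27 at the KDM6B site), a difference that did not pass its test. One counts reads over the whole site, averaged over the libraries of a group, and the other is the height of its tallest peak over input. The listed SETD1B site also spans the sites before the widest one, which differed by 0.54 and -0.10 in height. The 2 measures are also normalized in different ways, and the part of all this in the signs was not tested. At the main KDM6A site both measures were lower in V16D/H19.

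H3K27me3 was all but missing from these genes. In the 6 lists, 1 peak touched a gene region, at the upstream edge of that of KDM6B (chr17:7830652-7831522), in V16D/H19 replicate 1, at 3.09-fold over input. The other 9 regions held no H3K27me3 peak in any list. This is close to what other genes showed, since 71.9% of all protein-coding genes and 78.7% of those with H3K4me3 at the 5′ end in all 6 lists had no H3K27me3 peak either. None of the 10 genes could enter the comparison of H3K27me3 covered bases, which needed a peak in 3 lists and called 1.4% of 3999 genes. The authors' H3K27me3 table held no site of the 10 genes, beside 3.24% of all genes. Of the 40 to 55 H3K4me3 peaks in the regions per replicate, 0 shared a base with an H3K27me3 peak of that replicate. With 1 H3K27me3 peak in the regions this count was almost fixed in advance, so it is no further result. The share over all H3K4me3 peaks was not computed. The nearest H3K27me3 site found in at least 2 lists was 6.34 kb from KMT2D, 13.4 kb from KDM5B and 22.5 kb from SETD1A, and over 1 Mb away from SETD1B and KDM6A (1145.61 and 2313.42 kb).

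The partners of these enzymes gave no call in the fits either. Of 11 COMPASS subunits, 11 carried H3K4me3 at the 5′ end in all 6 lists, as did 11971 of all 19675 genes. Among the 11 subunits, 0 held an H3K27me3 peak, and 0 were called in either direction for covered bases or fold over input (median log2 difference -0.02 and 0.16, limma). At an unadjusted p under 0.05 stood 0 of the 11 for covered bases and 1 for fold, against the same 10.3% and 6.54% of all genes. Of the 11, 2 had a site in the authors' H3K4me3 list, beside 7.07% of all genes with a site in either direction. The PAGR1 promoter, of a partner in the KMT2C and KMT2D complexes, had 9.82 in V16D/CTL and 9.61 in V16D/H19 as the mean log2 normalized read count, and the ASH2L promoter, of a core subunit, 9.89 and 10.08. Of 3 further H3K4 demethylases, 3 were tested for H3K4me3 and 0 called, with 0 at an unadjusted p under 0.05. Of 4 further H3K4 methyltransferases, 3 were tested for H3K4me3 and 0 called, with 1 at an unadjusted p under 0.05 for covered bases and 0 for fold, and 1 was tested for H3K27me3 and not called.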

How the data were processed

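The 6 H3K4me3 and 6 H3K27me3 peak lists were made by the authors with MACS2 per replicate against its input. In the deposited lists each peak has a MACS2 score, its fold over input as a ratio, −log10 p-values and q-values and, for H3K4me3, the summit offset. The authors' differential tables come from DiffBind and ChIPseeker (hg38 per the labels), and their deposited group means are log2 normalized read counts. Their fold, p-value and FDR columns were not used. The aligner is not given in the sources used here. Reads were single-end, 75 bp.

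Genes were RefSeq, GRCh38.p14. The strand came from RefSeq promoters or, by symbol, GENCODE, for 19675 of 20056 protein-coding genes. Log2 covered bases and log2 highest fold were centred on the median per library and tested with limma 3.58.1 (R 4.3.3) over genes with a peak in all 6 lists, at a Benjamini-Hochberg adjusted p of 0.05. H3K27me3 used log2(bases + 100) and genes with peaks in at least 3 lists. Peaks sharing at least 1 base were merged to sites, and the fits over sites and the KDM6A blocks were added after the data were seen. The fits were tested on simulated data. The genes and lists were chosen with earlier results of these data known. All 10 genes are named; genes of other lists only where a site of theirs was listed or shared with one of the 10. Same-numbered libraries were not paired by the labels.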

Additional observations from a re-analysis of the deposited data

How the results depend on the processing

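No gene of the 10 passed the threshold under any alternative of the fits per gene, and none of their sites under any alternative of the fits per site. SETD1B has no value with peaks within 1 kb of the start, where it had none. Of 238 values of single genes under an alternative, 214 kept their sign, 24 turned it and 0 passed the threshold. The counts over all genes were less stable. For H3K4me3 covered bases 31 genes were called, 20 without centring, 13 with peaks within 1 kb of the start, and 4 to 27 with a replicate left out. For H3K4me3 fold over input 2 were called, 0 with peaks within 1 kb of the start, and 0 to 1 with a replicate left out. For H3K27me3 covered bases 56 were called, 25 with peaks of a −log10 q of at least 5, 9 with a pseudocount of 1000 bases, 27 with genes in 1 or more lists, and 9 to 43 with a replicate left out. Over sites, 1 was called by fold, 0 without centring and 0 with a replicate left out, and 6 by covered bases, 0 to 3 with a replicate left out. The cause was not tested.

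To look for pairing, the mean of its group was first taken from each library at every gene or site. The correlations below are between these deviations of V16D/CTL and V16D/H19 libraries, not between whole profiles. Between same-numbered libraries they were weak (r from -0.032 to 0.0373 over the 3 fits per gene and from -0.0238 to 0.026 over the 2 per site). For fold over input per gene, r was 0.0193 to 0.0373 between same-numbered libraries and -0.0312 to 0.0018 between the others. By these deviations all 6 libraries correlated best with their own number there, and 1 of 6 for covered bases. Whether the numbers pair the libraries is thus not settled, and the labels do not pair them. With the replicate block, 1 gene was called for H3K4me3 covered bases, 2 for fold, 0 for H3K27me3 covered bases, and 0 sites in either fit over sites.

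For covered bases the log2 difference turned sign at SETD1B without centring (0.0057) and with quantile normalization (0.0093), at KMT2A with peaks of a −log10 q of at least 5 (-0.0196) and, with peaks within 1 kb of the start, at KMT2A (-0.0149), KMT2D (0.0062), KDM6A (0.2251) and KDM6B (-0.0175). For fold it turned without centring at KMT2C (0.004) and KDM5B (0.05). With a replicate left out, covered bases ranged from -0.0328 to 0.0262 at SETD1B, -0.0953 to 0.0287 at KMT2C, -0.0576 to 0.0151 at KMT2B, -0.0089 to 0.0998 at KDM5B, -0.0095 to 0.0908 at KMT2A and -0.136 to 0.0075 at KDM6A. Fold ranged from -0.3209 to 0.0811 at SETD1A, -0.1834 to 0.1693 at KDM5B and -0.1569 to 0.0761 at KMT2C. The KDM6A intronic site kept its sign, from -1.35 to -1.21 with a replicate left out, with adjusted p from 0.326 to 0.707 over its alternatives.

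The number of H3K4me3 sites in at least 2 lists was 33, and 29 to 32 with a replicate left out. Where a library counted only if its peaks covered 50% of a site, 1 site, that of KDM6A at 7.6 to 9.25 kb, was found in all V16D/H19 lists and no V16D/CTL list, against 0 otherwise. The share of all sites by this rule was not computed. By the presence of any peak, 187 of 25373 merged sites were found in all V16D/H19 lists and no V16D/CTL list, and 85 the other way. Of the 4 listed sites, 1 had group means at least 1 apart. Reads per library were not used, so the precision of single peaks is unknown.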
